A study of Mus musculus with 19 samples.

Results

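Red blood cells carry a small set of very abundant microRNAs, and miR-451a, miR-144 and miR-486 are the best known of them. Their levels were followed in whole mouse hearts under a hypertrophic drug. Entries were taken by name: every row whose name begins with mmu-miR-451a, mmu-miR-144, mmu-miR-486a or mmu-miR-486b, either arm. This gave 6 of the 641 entries in the joined tables, and all 6 stand in both deposited tables. They are miR-451a, miR-144-3p, miR-144-5p, miR-486a-3p, miR-486b-3p and miR-486b-5p. No entry was listed under the name miR-486a-5p.

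Small RNA was sequenced from the hearts of 19 wild-type male C57BL6/J mice that were 12 weeks old, at 21 days. In the control group 6 mice carried a pump filled with saline, and in the isoproterenol group 6 mice carried a pump delivering this beta-adrenergic agonist at 30 mg/kg per day. A group of 7 mice had that isoproterenol pump and also received minocycline, a tetracycline antibiotic, by intraperitoneal injection at 50 mg/kg per day. No vehicle injection is named in the labels for mice without minocycline, so minocycline and the injection itself cannot be told apart. Each library is 1 mouse and is called here by its group and animal number.

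As background, miR-144 and miR-451a are made from 1 primary transcript that the red cell factor GATA1 switches on during red cell maturation. miR-451a is processed in an unusual way, since its short hairpin is cut by Argonaute 2 and not by Dicer, and only 1 arm accumulates. miR-486 is also abundant in red cells but has a muscle source besides, because its hairpin lies in an intron of Ank1, a gene with a muscle promoter upstream of that intron. The labels do not say whether blood was flushed from the hearts. In bulk tissue, fewer red cells and less RNA per cell cannot be told apart.

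The 6 sequences are shown because their arms, seeds and base composition decide which entries can be told apart. Each is written 5′ to 3′ as deposited, in DNA letters, with the seed (bases 2 to 8) in capitals.
miR-451a: aAACCGTTaccattactgagtt
miR-144-3p: tACAGTATagatgatgtac
miR-144-5p: gGATATCAtcatatactgtaagt
miR-486b-5p: tCCTGTACtgagctgccccgagt
miR-486a-3p: cGGGGCAGctcagtacaggatg
miR-486b-3p: cGGGGCAGctcagtacagga
Only the 2 miR-486 3p entries share a seed. They also share their first 20 bases and differ only in length, so the division of reads between them is uncertain. No other pair of the 6 entries has the same seed. In RefSeq (GRCm38.p6), 3 of the 6 had a matching mature sequence: miR-451a and miR-144-5p were identical to it, and the miR-144-3p entry was 1 base shorter at its 3′ end.

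A near relative by seed was found for 1 entry. Bases 2 to 7 of miR-144-3p also stand in the miR-101 entries, of which the most abundant is printed for comparison, with the same marking.
miR-101a-3p: tACAGTACtgtgataactgaat
The seeds part at base 8. The base composition of the 6 entries falls into 2 classes. The miR-144 and miR-451a entries are poor in G and C (30.4% for miR-144-5p, 31.6% for miR-144-3p and 36.4% for miR-451a). The miR-486 entries are rich in them (60.9% for miR-486b-5p, 63.6% for miR-486a-3p and 65.0% for miR-486b-3p).

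The loci were placed with the GRCm38 gene annotation, since the build used by the authors is not given in the sources used here. The Mir144 hairpin spans chr11:78073005-78073070 and the Mir451a hairpin chr11:78073170-78073241, both on the plus strand, with 99 bases between them. Mir451b is annotated over the same span on the minus strand. Mir486 spans chr8:23142555-23142682 on the plus strand and Mir3107, the miR-486b hairpin, chr8:23142573-23142662 on the minus strand, inside the span of the first. Both lie within the spans of 15 annotated Ank1 transcripts and overlap 0 Ank1 exons, so both spans are intronic by position. Ank1 is on the plus strand, as is Mir486, whereas Mir3107 is antisense to it. The hairpins lie on opposite strands, and the longest run of reverse complement between miR-486b-5p and either 3p entry was 20 bases.

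Libraries held 3166774 to 6548879 reads of listed entries. A single entry, miR-1a-3p of heart and skeletal muscle, took 28.3% to 50.6% of them. Of all reads, the 6 entries held 0.581% ± 0.0663 (SD, n = 6) in the control group. Their share was 0.505% ± 0.100 (SD, n = 6) under isoproterenol and 0.583% ± 0.100 (SD, n = 7) when minocycline was added. Nearly all of that was miR-486. The miR-451a and miR-144 entries alone held 0.0594% ± 0.0309 (SD, n = 6) in the control group, 0.0385% ± 0.00826 (SD, n = 6) under isoproterenol and 0.0457% ± 0.0300 (SD, n = 7) when minocycline was added. The smallest count of any of the 6 entries was 22 reads of miR-144-5p in isoproterenol plus minocycline 957, with an exact Poisson 95% interval of 13.8 to 33.3 that covers counting error only.

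Levels are given as scaled reads, that is, deposited counts divided by a library factor (a trimmed mean of log ratios over all 19 libraries). Among 357 entries tested over the 3 groups, miR-486b-5p ranked 30 by mean level, miR-451a 79, miR-486a-3p 107, miR-144-5p 197, miR-144-3p 198 and miR-486b-3p 258. A rank between microRNAs also reflects how well each sequence is captured in a library. The entries of the shared miR-144 and miR-451a locus were thus far apart: miR-451a held about 2089 scaled reads on average over all libraries, and miR-144-3p 170.

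**Figure D1:**
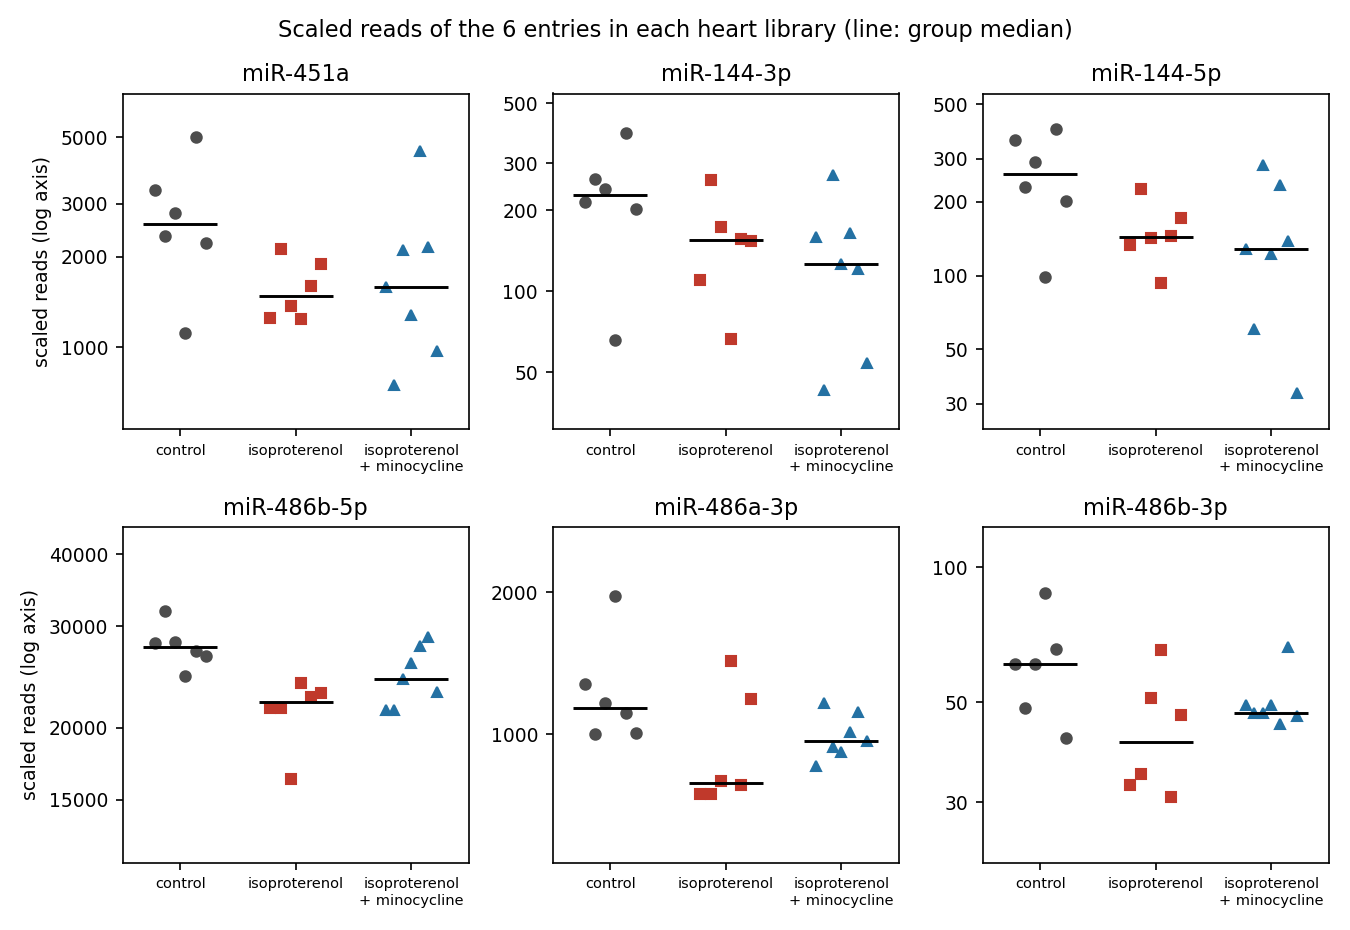
Scaled reads (log axis) of the 6 entries in each library, by group, with a line at each group's median (control n = 6, isoproterenol n = 6, isoproterenol plus minocycline n = 7). The points of miR-451a and both miR-144 arms are widely scattered within groups, with control 949 lowest and control 950 highest among controls, whereas miR-486b-5p is tight.

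miR-451a, the most red-cell-restricted of the set, ran from 1114 through a median of 2580 to 4989 scaled reads in controls. The isoproterenol hearts ran from 1248 through 1483 to 2132. Those given both drugs ran from 749 through 1585 to 4509. The lowest control was 949 and the highest 950, a 4.48-fold range, and the isoproterenol hearts all lay inside it. The hearts given both drugs reached below and nearly as far above, with 942 lowest and 953 highest.

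miR-144-3p, the guide arm of miR-144, ran from 66.1 through a median of 228 to 389 scaled reads in controls. Isoproterenol hearts ran from 66.3 through 155 to 259, and with both drugs from 43.0 through 127 to 270. The same hearts stood at the ends as for miR-451a: 949 and 950 among controls, 951 and 943 with isoproterenol. With both drugs 942 was again lowest, but 946 was highest in place of 953. All 3 groups overlapped.

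miR-144-5p, the opposite arm of the same hairpin, ran from 99.1 through a median of 261 to 395 scaled reads in controls. The isoproterenol range was 92.9 through 143 to 226, and with both drugs from 33.1 through 129 to 284. Controls 949 and 950 and isoproterenol 951 and 943 again marked the ends, and with both drugs 957 was lowest and 946 highest. Isoproterenol 951 and, with both drugs, 942 and 957 lay below every control, and the groups overlapped.

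miR-486b-5p, the dominant arm of miR-486, ran from 24583 through a median of 27603 to 31856 scaled reads in controls. With isoproterenol it ran from 16324 through 22147 to 23925, and with both drugs from 21460 through 24315 to 28708. Every isoproterenol heart lay below every control heart on this scale, as did 26 of the 356 entries tested in that comparison (7.30%). When only the control and isoproterenol libraries were scaled together, the groups touched: the highest isoproterenol value was 24109 and the lowest control value 23776. The hearts given both drugs overlapped both other groups.

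miR-486a-3p, the less abundant arm, ran from 1000.1 through a median of 1138 to 1965 scaled reads in controls. With isoproterenol it ran from 747 through 787 to 1426, and with both drugs from 856 through 969 to 1166. Here control 949 was the highest control and isoproterenol 951 the highest isoproterenol heart, whereas both had been lowest in their groups for miR-451a and miR-144. The groups overlapped, although 4 of 6 isoproterenol hearts lay below every control.

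miR-486b-3p, the shorter form of that sequence, ran from 41.8 through a median of 60.9 to 87.7 scaled reads in controls. With isoproterenol it ran from 30.8 through 40.7 to 65.3, and with both drugs from 44.7 through 47.3 to 66.3. Its highest hearts among controls and isoproterenol hearts were again 949 and 951, and the groups overlapped. The 3p to 5p balance of miR-486 was alike across groups: the median count of miR-486b-5p per count of miR-486a-3p was 24.3 in controls, 24.7 with isoproterenol and 25.8 with both drugs, but it was 12.5 in control 949 and 16.8 in isoproterenol 951.

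The spread among hearts of 1 group differed between the entries. The pooled within-group SD of log2 scaled reads was 0.68 for miR-451a, the third highest of the 45 entries within 2-fold of its mean level, whose median SD was 0.16. It was 0.83 for miR-144-3p, the fourth highest of 77 such entries, and 0.80 for miR-144-5p, the sixth highest of 79. For miR-486b-5p it was 0.17, rank 11 of 22 entries of like level, which is in the middle. The SDs of the miR-486 3p entries lay between, but their ranks differed. miR-486a-3p, at 0.32, was rank 8 of 59 entries of like level, whose median SD was 0.17. miR-486b-3p, at 0.33, was rank 47 of 71, whose median SD was 0.39. This ranking is a description of these libraries, without a test.

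Isoproterenol hearts were then compared with control hearts, the question being how the drug alone changed each microRNA. Fold changes are differences of log2(scaled reads + 1) between group means, tested with limma and Benjamini-Hochberg adjusted over all entries. The p-values measure the spread between these 12 mice. miR-486b-5p was the only entry of the 6 that passed, and it fell 1.27-fold: the log2 fold change was -0.35 (SE 0.10, 95% interval -0.56 to -0.14), with a limma adjusted p of 0.0140. All 6 isoproterenol hearts lay below the control mean. That call was kept in 22 of 23 alternative settings and lost in 1. It was lost with libraries scaled to total reads, where the log2 fold change was -0.18 and the limma adjusted p 0.359. In the authors' deposited table this entry has a fold change of 0.8 and an unadjusted p of 0.00393.

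The other 5 entries all had negative fold changes that did not pass. miR-451a stood at a log2 fold change of -0.69 (SE 0.27, 95% interval -1.27 to -0.11), 1.62-fold lower, with a limma adjusted p of 0.0590. All 6 isoproterenol hearts lay below the control mean. miR-144-5p was close to it at -0.68 (SE 0.29) with a limma adjusted p of 0.0803, again with 6 of 6 hearts below the control mean. miR-144-3p stood at -0.50 (SE 0.37) with a limma adjusted p of 0.326. Of the miR-486 3p entries, miR-486a-3p stood at -0.39 (SE 0.20, limma adjusted p 0.158) and miR-486b-3p at -0.46 (SE 0.23, limma adjusted p 0.127), each with 5 of 6 hearts below the control mean.

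In this comparison 37.1% of the 356 tested entries passed in either direction, 75 higher and 57 lower, and 16.0% passed as lower. With total scaling the split was 78 higher and 5 lower. Against that background 1 of 6 entries is not a result about the set. The median log2 fold change of the 6 was -0.48, beside 0.01 over all tested entries. Leaving out 1 heart moved several of these values, in either direction. Without control 949, the log2 fold changes grew to -0.93 for miR-451a (limma adjusted p 0.00417), -0.93 for miR-144-5p (0.00561) and -0.82 for miR-144-3p (0.0327). With that, 4 of 6 passed. Control 949 was the lowest control for each of miR-451a, miR-144-5p and miR-144-3p, so its removal was bound to enlarge their falls. Over the removals of 1 heart, 100 to 128 of all tested entries were called. The removal of 949 weakened miR-486a-3p to -0.25 (limma adjusted p 0.311). Without isoproterenol 951, the 3p entries passed instead, with -0.54 for miR-486a-3p (limma adjusted p 0.0366) and -0.61 for miR-486b-3p (0.0432), while miR-144-3p stood at -0.31 (limma adjusted p 0.585). Without control 950, miR-144-3p stood at -0.32 (limma adjusted p 0.540). At the weakest, leaving out 1 heart gave -0.51 for miR-451a and -0.55 for miR-144-5p.

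**Figure D2:**
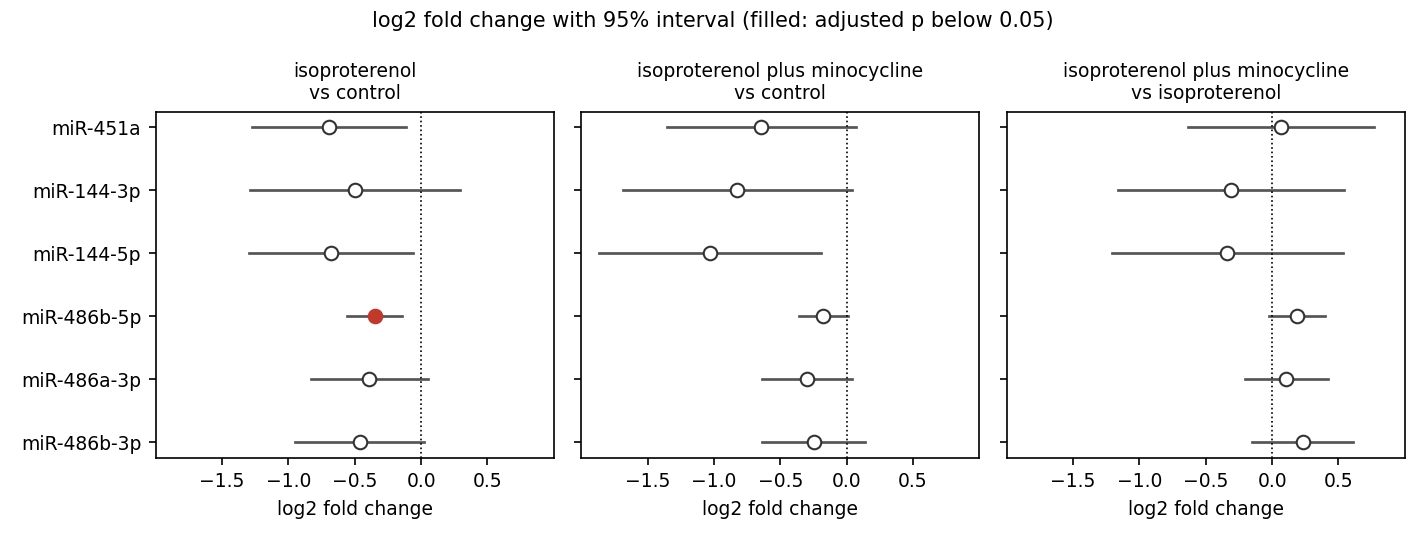
Log2 fold changes of the 6 entries in the 3 comparisons (points) with 95% intervals (lines) from limma, with a filled point where the adjusted p was below 0.05. Only miR-486b-5p in isoproterenol against control (-0.35) is filled, and its interval is the narrowest of that panel.

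Minocycline added to isoproterenol was compared with isoproterenol alone, and none of the 6 entries passed. At an unadjusted limma p below 0.05 the count was also 0 of 6, beside 11.3% of all tested entries, and the exact rank-sum test and the fit with voom weights called 0 as well. Over all 364 entries tested, 0.275% passed, that is, 1 entry, the inflammation-linked miR-146a-5p, which was lower by a log2 fold change of -0.59 (limma adjusted p 0.0476), named here after its value was seen. miR-451a differed by 0.07 (SE 0.33), and its 95% interval of -0.63 to 0.76 leaves room for changes of either sign. That sign depended on 1 heart: without 953 the value was -0.18, and without 955 it was -0.0063. miR-144-3p stood at -0.31 (95% interval -1.16 to 0.54) and miR-144-5p at -0.34 (-1.21 to 0.53). Leaving out 1 heart moved the first between -0.51 (without isoproterenol 951) and -0.072 (without 942), and the second between -0.54 (without 946) and -0.028 (without 957).

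The miR-486 entries were measured more precisely in that comparison. miR-486b-5p stood at 0.19 (SE 0.10, 95% interval -0.02 to 0.40) with a limma adjusted p of 0.466, and 4 of 7 hearts with both drugs lay above every isoproterenol heart. miR-486a-3p stood at 0.11 (95% interval -0.21 to 0.42) and miR-486b-3p at 0.23 (-0.15 to 0.61). Without isoproterenol 948 miR-486b-5p stood at 0.11; leaving out 1 heart gave 0.048 (without isoproterenol 943) to 0.25 (without isoproterenol 951) for miR-486a-3p and 0.14 (without isoproterenol 954) to 0.37 (without isoproterenol 951) for miR-486b-3p. A value that misses the threshold does not show that the groups are alike, and the intervals give the sizes that these 13 hearts allow. In the authors' deposited table for this comparison, the fold changes run from 0.88 for miR-144-3p to 1.21 for miR-451a, and the smallest unadjusted p is 0.0768, for miR-486b-5p.

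Hearts given both drugs were also set against controls, in 1 fit of all 3 groups that shares its controls and its isoproterenol hearts with the comparisons above. None of the 6 entries passed, while 19.6% of the 357 tested entries passed in either direction and 9.52% as lower. At an unadjusted limma p below 0.05 the count was 1 of 6, miR-144-5p, beside 35.9% of all tested entries, and the exact rank-sum test and the fit with voom weights called 0 after adjustment. miR-144-5p had the most negative fold change of the 6, at -1.03 (SE 0.40, 95% interval -1.87 to -0.19) with a limma adjusted p of 0.0704, and 6 of 7 hearts were below the control mean. miR-144-3p stood at -0.82 (SE 0.41, limma adjusted p 0.158) and miR-451a at -0.64 (SE 0.34, limma adjusted p 0.181). Without control 949 the values were -1.24 for miR-144-5p (limma adjusted p 0.0284) and -1.10 for miR-144-3p (0.0416), and both passed. Control 949 was the lowest control for both, so its removal was bound to enlarge their falls. Over the removals of 1 heart, 61 to 92 of all tested entries were called in this comparison. Without 946, the heart with both drugs that had the most miR-144-5p, that entry stood at -1.20 (limma adjusted p 0.0342). In the other direction, leaving out 1 heart weakened the values to -0.73 for miR-144-5p, -0.59 for miR-144-3p and -0.45 for miR-451a at the furthest.

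The miR-486 entries stood nearer to 0 in hearts given both drugs than in the first comparison, where the same controls were used. miR-486b-5p stood at -0.17 (SE 0.09, limma adjusted p 0.169), miR-486a-3p at -0.30 (SE 0.16, limma adjusted p 0.194) and miR-486b-3p at -0.25 (SE 0.19, limma adjusted p 0.365). Without control 949 the 3p values were -0.11 for miR-486a-3p and -0.091 for miR-486b-3p, and miR-486b-5p stood at -0.090 without control 944 and -0.096 without 939. With libraries scaled to total reads miR-486b-5p turned to 0.042. By mean scaled reads, miR-486b-5p was ordered control (27756 ± 2398, SD, n = 6), both drugs (24666 ± 2890, SD, n = 7) and isoproterenol (21523 ± 2690, SD, n = 6), and of these only the outer 2 differed beyond their spread by the limma test. miR-451a had the same order, at 2803 ± 1298 (SD, n = 6), 1910 ± 1264 (SD, n = 7) and 1582 ± 366 (SD, n = 6), and no neighbours or ends differed.

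The entries were next compared heart by heart, as deviations of log2 scaled reads from the group mean over 19 libraries. Of 30 relations tested by permutation with Benjamini-Hochberg adjustment, those within the miR-144 and miR-451a locus were the closest. miR-451a and miR-144-5p moved together with Pearson's r of 0.86 (adjusted permutation p 0.00165) and Spearman's rho of 0.91 (adjusted permutation p 3.0e-04). Without the 2 hearts farthest from the median of miR-451a, control 950 and isoproterenol plus minocycline 942, r was 0.84. Hearts with much miR-451a were thus hearts with much miR-144-5p. The 2 arms of miR-144 gave r of 0.90 and rho of 0.81 (adjusted permutation p 0.00120 and 0.00285), and r of 0.88 without the 2 farthest hearts.

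Within groups, the relation passed in the control and isoproterenol hearts for miR-144-5p. Its r with miR-451a was 0.97 in controls (n = 6, adjusted exact permutation p 0.00694), 0.89 with isoproterenol (n = 6, adjusted exact permutation p 0.00694) and 0.81 with both drugs (n = 7, adjusted exact permutation p 0.0939). The isoproterenol relation no longer passed with total scaling (r 0.81, n = 6, adjusted exact permutation p 0.160). Leaving out the 2 farthest hearts of either group leaves 4, too few pairings for the adjusted test to decide, so only r is read there. In isoproterenol hearts without 943 and 958, r was 0.61 (adjusted exact permutation p 0.557). In controls without 949 and 950, r was 0.99 (adjusted exact permutation p 0.208). For miR-144-3p, r with miR-451a was 0.80 and rho 0.73 over all libraries (adjusted permutation p 0.00480 and 0.0162). Without the 2 farthest hearts r was 0.71 and the relation no longer passed (adjusted permutation p 0.0530). In controls alone r was 0.93 (n = 6, adjusted exact permutation p 0.0729), and it rested on 949 and 950, with -0.094 without them. The entries share library factors and totals, which also tie them.

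The relations of miR-486 with the other locus were weaker or of the other sign. miR-486b-5p and miR-451a gave r of 0.46 and rho of 0.43, with adjusted permutation p of 0.132 and 0.237. miR-486a-3p and miR-451a gave r of -0.31 (rho -0.15, adjusted permutation p 0.284 and 0.848). Between miR-486a-3p and miR-144-3p the sign was negative, with r of -0.64 (adjusted permutation p 0.0172) and rho of -0.47 (adjusted permutation p 0.151). The 2 forms of the miR-486 3p arm moved together with r of 0.79 and rho of 0.72 (adjusted permutation p 0.00694 and 0.0162), with r of 0.54 without control 949 and isoproterenol 951. For the 5p arm no relation with either form passed: r with miR-486b-5p was 0.08 for miR-486a-3p and -0.09 for miR-486b-3p, with adjusted permutation p of 0.829 for each.

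**Figure D3:**
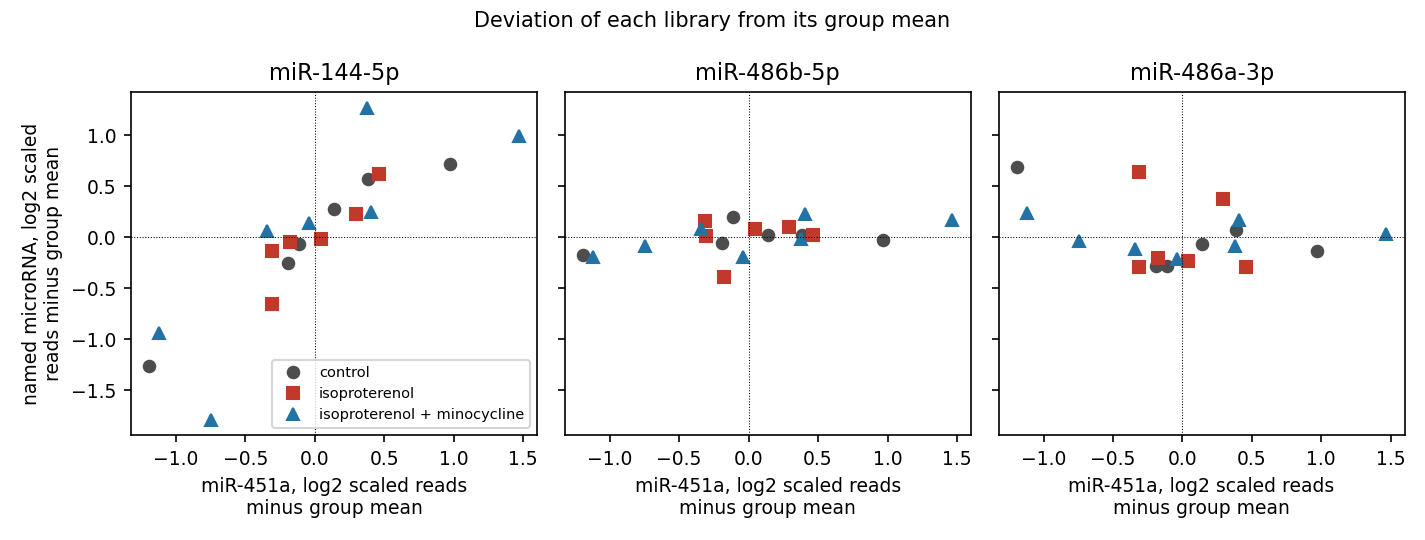
Deviation of log2 scaled reads from the group mean in each of 19 libraries, with miR-451a on the x axis and miR-144-5p, miR-486b-5p or miR-486a-3p on the y axis of each panel, symbols marking the groups. The points rise together for miR-144-5p (r 0.86) and stay within a narrower band on the y axis for miR-486b-5p (r 0.46).

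Ratios inside a library do not depend on how libraries are scaled, so 4 of them were compared between groups (12 exact two-sided permutation tests, Benjamini-Hochberg adjusted). The ratio of miR-451a to miR-23a-3p serves in plasma as a gauge of red cell leakage, since miR-23a-3p is little affected by it. It is not calibrated for heart tissue. As a log2 ratio it ran from -5.30 through a median of -3.89 to -3.23 in controls. With isoproterenol it ran from -5.47 through -4.95 to -4.39, and with both drugs from -6.03 through -5.13 to -3.49. Control 949 lay among the treated hearts and 953 among the controls, so the groups overlapped.

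The isoproterenol mean of that log2 ratio differed from the control mean by -0.96, with 6 of 6 hearts below the control mean. The exact permutation p was 0.0216 and the adjusted value 0.260, so the difference did not pass. The smallest p that 6 against 6 allows is 0.00216. Hearts with both drugs stood at -0.94 against controls (exact permutation p 0.0618, adjusted 0.371) and at 0.02 against isoproterenol (exact permutation p 0.959, adjusted 0.959). The denominator moved as well: miR-23a-3p rose with isoproterenol, with a log2 fold change of 0.27 (limma adjusted p 0.0233), a call that was not made without isoproterenol 951 (0.21, limma adjusted p 0.0525) or with total scaling (0.44, limma adjusted p 0.0555). Its scaled reads ran from 36564 to 46962 in controls and from 44265 to 55311 with isoproterenol. Its part in the ratio was not tested.

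**Figure D4:**
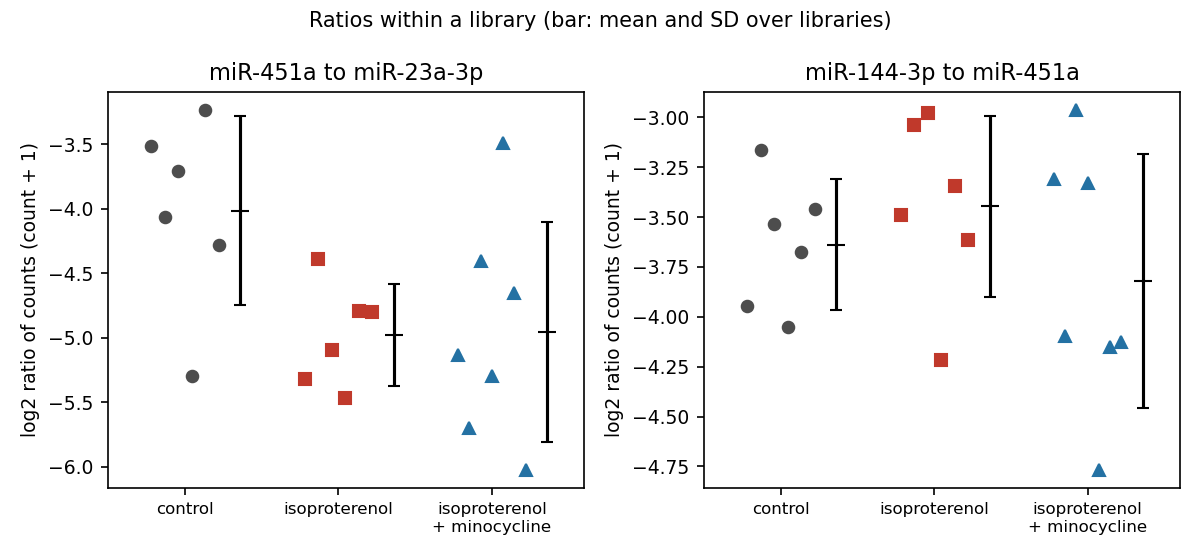
Log2 ratio of counts (each count + 1) of miR-451a to miR-23a-3p and of miR-144-3p to miR-451a in each library, with the mean and SD of each group as a bar (n = 6, 6 and 7). In the left panel 5 of 6 controls lie at -4.28 or above, and control 949 lies at -5.30.

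The other ratios compared the 6 entries with each other and showed no difference that passed. The log2 ratio of miR-144-3p to miR-451a was -3.64 ± 0.33 (SD, n = 6) in the control group, -3.45 ± 0.45 (SD, n = 6) under isoproterenol and -3.82 ± 0.63 (SD, n = 7) when minocycline was added. The ratio of the miR-144 arms, 5p to 3p, was 0.23 ± 0.36 (SD, n = 6) in the control group, 0.06 ± 0.30 (SD, n = 6) under isoproterenol and 0.03 ± 0.43 (SD, n = 7) when minocycline was added, which is near equal reads of each arm. The ratio of miR-486b-5p to miR-451a was 3.44 ± 0.68 (SD, n = 6) in the control group, 3.79 ± 0.35 (SD, n = 6) under isoproterenol and 3.91 ± 0.75 (SD, n = 7) when minocycline was added. The adjusted exact permutation p of these 9 tests was at least 0.614. In counts, the last ratio ran from 5.44 in control 950 to 28.6 in isoproterenol plus minocycline 942.

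The entries outside the set whose levels were most like miR-451a were found by Pearson's r over the same 19 deviations, among 351 entries, as a description. They were miR-15b-3p (r 0.75), an entry from the miR-142a precursor (r 0.73), miR-142a-3p (r 0.57), miR-106b-3p (r 0.54) and miR-199b-5p (r 0.53). All 5 lie below the r of 0.86 of miR-144-5p. miR-142a-3p is a marker of white blood cells and platelets. miR-15b-3p and miR-106b-3p are the opposite arms of miR-15b-5p and miR-106b-5p, which stand in the red cell list of the next paragraph. For miR-486b-5p the closest entries were miR-1983 (r 0.71), miR-490-3p (r 0.70), miR-30c-5p (r 0.67), miR-335-3p (r 0.66) and let-7b-3p (r 0.66). No entry stands in both lists.

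Other microRNAs that are abundant in red cells were taken as a list of 15 names, most of which other cells make too. It had 16 entries, of which 12 were tested; those of miR-363-3p, miR-182-5p, miR-183-5p and miR-96-5p did not pass the filter on low reads. With isoproterenol 0 of the 12 were higher and 6 lower, beside 16.0% lower among all tested, and the median log2 fold change was -0.22 beside 0.01 over all. The 6 stand for 5 microRNAs, since miR-92a-3p is listed as 2 entries with the same counts. Total scaling shifted the median of all entries to 0.18, and there 1 of the 12 was called and the list's median was -0.05. Without control 949 the count was 5 lower, and without isoproterenol 951 it was 7.

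The largest difference in that list was miR-185-5p, which fell from 7311 ± 282 to 4968 ± 345 reads with these 2 groups scaled alone (SD, n = 6 each; log2 fold change -0.56, limma adjusted p 1.9e-05). It was also called with libraries scaled to total reads, at -0.39 (limma adjusted p 0.0282). Among microRNAs of the miR-17-92 cluster and its relatives, miR-20a-5p fell (-0.29, limma adjusted p 0.00483), as did miR-92a-3p (-0.28, 0.00247), miR-25-3p (-0.25, 0.0155) and miR-17-5p (-0.20, 0.0496). The last was not called without control 949 (limma adjusted p 0.0952). miR-101a-3p, the seed relative of miR-144-3p and the most abundant of the list, stood at -0.27 (limma adjusted p 0.115). miR-16-5p, a red cell microRNA that nearly every other cell makes, stood at 0.01 (limma adjusted p 0.954).

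With miR-92a-3p counted once, the summed scaled reads of that list were 54890 to 61015 in the control group, 41869 to 52235 under isoproterenol and 46984 to 54831 when minocycline was added. Every isoproterenol heart lay below every control on that scale, as for 7.30% of single entries. Hearts given both drugs did so only barely, with a highest sum of 54831 against a lowest control of 54890. The share of single entries that did so for both drugs was not computed. The most abundant entry in the sum, miR-101a-3p, was not called against controls in either treated group. With total scaling all groups overlapped, at 45663 to 58474 in the control group, 44241 to 54377 under isoproterenol and 49871 to 60488 when minocycline was added. Hearts given both drugs had 1 of 12 lower than controls, miR-185-5p again (-0.44, limma adjusted p 1.0e-04), and 0 of 12 called against isoproterenol alone, with a median of 0.10 beside -0.02 over all tested. That 1 call was lost with total scaling (-0.23, limma adjusted p 0.180). There the median against controls turned from -0.10 to 0.12, below the 0.21 of all entries there.

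Other cell types in the heart were read from lists of their microRNAs, since blood and muscle share miR-486. The counts called stand beside 75 higher and 57 lower of all 356 entries tested with isoproterenol (37.1% in either direction). In lists this small, 1 or 2 calls are not read as a result about a cell type. Of 5 tested white blood cell entries, 1 was higher and 2 lower with isoproterenol, with a median of 0.17; without control 949 that median was -0.0012. Their summed reads were 6319 to 7293 in the control group, 4575 to 6012 under isoproterenol and 5032 to 6629 when minocycline was added. The lymphocyte microRNA miR-150-5p fell (-0.89, limma adjusted p 1.9e-05), as did miR-155-5p (-0.33, limma adjusted p 0.00765), while miR-342-3p stood at 0.33 (limma adjusted p 0.0674). With total scaling miR-155-5p was not called (-0.16, limma adjusted p 0.482), and the median of the list was 0.34. The third called entry, named after its value was seen, was the myeloid and platelet microRNA miR-223-3p, which rose (0.45, limma adjusted p 0.000936). Of 4 platelet entries 2 were higher with isoproterenol and 0 lower, miR-223-3p again and miR-24-3p (0.30, limma adjusted p 0.00319). Summed platelet reads were 167215 to 195283 in the control group, 160609 to 175743 under isoproterenol and 167721 to 180924 when minocycline was added. Most of that sum was miR-126a-3p (mean of 146815 scaled reads in controls), which also stands in the endothelial list, so the sum is not a measure of platelets.

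The muscle list bears on miR-486, whose host gene Ank1 is active in muscle. Of its 7 tested entries 4 were lower with isoproterenol, beside 16.0% of all tested entries, and 0 were higher. Their median log2 fold change was -0.32. Under scaling to total reads 1 was lower and the median was -0.15, beside 0.18 over all tested entries. With miR-1a-3p, itself in the list, left out of that total, 4 were lower. The median was then -0.24, beside 0.096 over all tested entries. miR-499-5p, made from a myosin gene intron, fell (-0.83, limma adjusted p 1.9e-05), as did miR-133a-3p (-0.39, limma adjusted p 0.00649), beside the -0.35 of miR-486b-5p. The other called entries were miR-133a-5p, the opposite arm, and miR-133b-3p (-0.32 each, limma adjusted p 0.00294 and 0.00735). Of those not called, miR-1a-3p stood at -0.29 (limma adjusted p 0.311) and miR-208b-3p at -0.83 (limma adjusted p 0.535). miR-208a-3p went the other way, at 0.16 (limma adjusted p 0.351). Summed muscle reads were 2370020 to 3926310 in the control group, 1527870 to 2830270 under isoproterenol and 1981440 to 2703080 when minocycline was added. In the fibroblast list 3 of 3 tested entries were higher, beside 75 of all 356 tested. Their median was 0.77, led by miR-21a-5p (1.18, limma adjusted p 2.5e-05). Of 2 endothelial entries 1 was lower, beside 16.0% of all tested, with a median of -0.18, and 0 were called with total scaling. The part of these shifts in the levels of the 6 entries was not tested.

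Levels of the entries were also set against base composition, and no relation passed. For each library, the GC tilt was a difference between medians of log2 deviations from the group mean. The median of 53 GC-poor entries (at most 40% G and C) was subtracted from that of 49 GC-rich ones (at least 55%). Entries averaged at least 50 scaled reads, and the 6 were left out. The tilt was highest in isoproterenol 951, at 0.29, and lowest in isoproterenol plus minocycline 946, at -0.20. Among controls it was highest in 949, at 0.16. Those are the hearts with the most miR-486a-3p in their groups, 951 and 949, and the one with the most miR-144-3p, 946. The pattern was not general: 942 had the most miR-486a-3p of the hearts given both drugs and a tilt of -0.18.

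Across 19 libraries the GC tilt gave r of 0.56 with miR-486a-3p and 0.57 with miR-486b-3p, each with an adjusted permutation p of 0.0989 over 18 relations. Spearman's rho was 0.47 and 0.43, each with an adjusted permutation p of 0.494. Without 951 and isoproterenol plus minocycline 955, r was 0.37 and 0.32. For miR-486b-5p r was 0.34 and for miR-451a 0.14, with adjusted permutation p of 0.408 and 0.676. Neither depth nor the share of miR-1a-3p gave a relation that passed. With the tilt as a covariate, an alternative chosen after seeing the data, miR-486a-3p passed in isoproterenol against control at -0.39 (limma adjusted p 0.0486), and the calls of the other 5 entries were as before. Because the tilt is taken from deviations within groups, this fit could not adjust for a difference in base composition between groups. It narrowed the spread and left the fold change where it was. The part of the tilt in the levels of 949 and 951 was not tested.

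**Figure D5:**
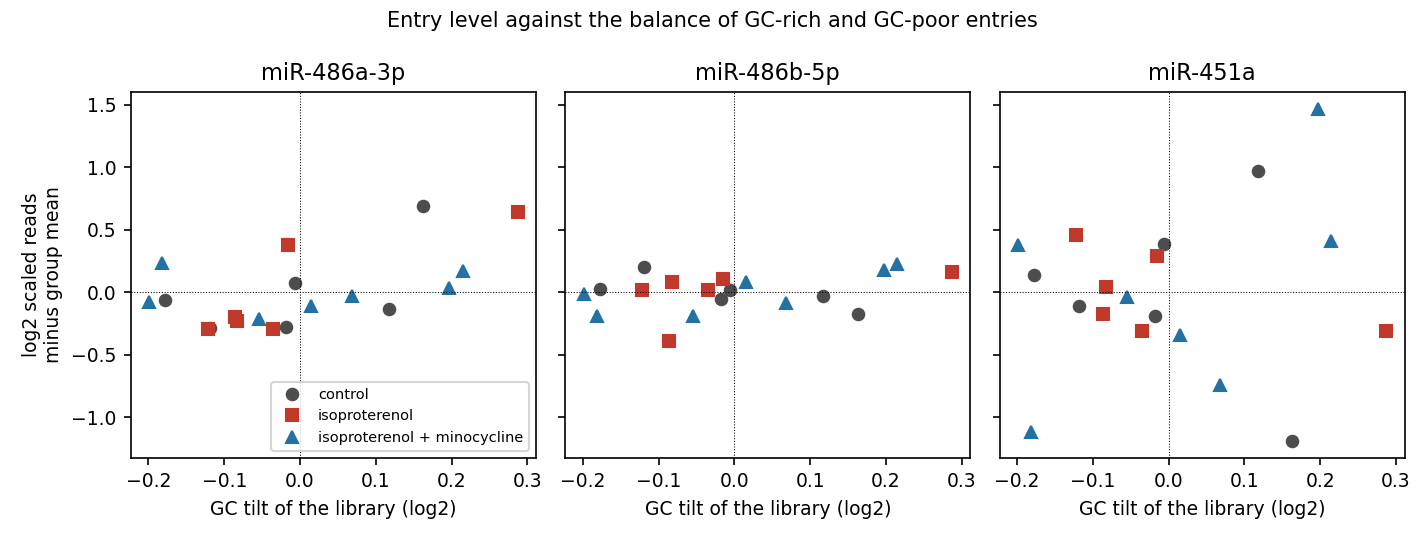
Deviation of log2 scaled reads from the group mean (y axis) against the GC tilt of the library (x axis, log2) for miR-486a-3p, miR-486b-5p and miR-451a in 19 libraries, symbols marking the groups. For miR-486a-3p (r 0.56) control 949 (tilt 0.16) and isoproterenol 951 (0.29) are the highest points, and for miR-451a r is 0.14.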

How the data were processed

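Per the labels' protocols, RNA from 19 hearts was extracted with a Qiagen kit and reads were cleaned with ACGT101-miR. The mapper, genome build and miRBase release were not given in the sources used here. The authors deposited raw counts per entry, per the file headers. These are whole numbers written as quoted text with commas. No count model was run, and a log-scale test was used. The alternative with voom weights took those weights from the raw counts. The authors' deposited normalized values, a score rounded to whole numbers, served in 1 alternative, without that of isoproterenol 954. The authors also deposited, per the file headers, a ratio of means, the log2 of that fold change, and a p-value without adjustment; they are quoted only where named.

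Library factors came from a trimmed mean of log ratios, with trims of 0.3 and 0.05. An entry was tested when it had 10 or more scaled reads in a number of libraries equal to the size of the smaller group. The test was limma 3.58.1 (R 4.3.3) with a trended prior, on log2(scaled reads + 1). Adjusted p-values (Benjamini-Hochberg, over all entries tested) were called below 0.05. Each deposited table was fitted alone, and both drugs were compared with control in 1 fit of the joined tables. A further 24 and 46 entries stood in a single table, with no more than 22 reads, and were given 0 in the other. The fits were tested on simulated data. Ratios used exact permutation tests, and correlations over all libraries used 100000 permutations within groups (SciPy 1.17.1). Depth was 3166774 to 6548879 listed reads.

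Named were all 6 entries, miR-23a-3p, the called and the most abundant entries of the red cell list, up to 3 of each other list by abundance, and the 5 entries most like miR-451a and miR-486b-5p. Further entries of the muscle list were named after their values were seen. The members and lists were chosen with earlier results of these data known. Alternatives covered scaling, pseudocount, filter, test, deposited normalized values, groups in the fit and leaving out each library; the base composition covariate and the list counts under other settings were chosen after seeing the data.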

Additional observations from a re-analysis of the deposited data

Results flagged for a closer look

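Of 33 groups of values examined, 5 held a heart whose distance from its nearest neighbour was large for the group's range (Dixon's 95% limit); chance marks about 1 in 20 groups. miR-451a had 4509 scaled reads in isoproterenol plus minocycline 953, far above the other 6 hearts of that group. miR-486a-3p had 1965 scaled reads in control 949, far above the other controls. miR-486b-3p had 66.3 scaled reads in isoproterenol plus minocycline 955, above the others of its group. miR-486b-5p had 16324 scaled reads in isoproterenol 948, below the other isoproterenol hearts. The log2 ratio of miR-486b-5p to miR-486a-3p was 4.20 in isoproterenol plus minocycline 942, below the other hearts given both drugs.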

How the results depend on the processing

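No paired analysis was possible because the groups share no animal numbers. Over 18 fold changes of the 6 entries, 413 of 426 alternative values kept direction and side of the threshold. With libraries scaled to total reads, miR-486b-5p lost its call with isoproterenol (-0.18) and turned to 0.042 for both drugs against control, while 83 entries passed in isoproterenol against control, 78 higher and 5 lower, in place of 132; the median of all entries there was 0.18. For both drugs against isoproterenol, 0 entries passed in place of 1 with total scaling, no filter, the exact rank-sum test or the deposited normalized values, and 0 to 1 when a library was left out; miR-451a ranged from -0.18 to 0.26 then. Leaving out 1 library, the ratio of both drugs to isoproterenol ran from -0.22 to 0.20 for miR-451a to miR-23a-3p, from -0.10 to 0.095 for the miR-144 arms and from -0.029 to 0.34 for miR-486b-5p to miR-451a.

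Scaled to total reads, r with miR-451a was 0.81 for miR-144-5p with isoproterenol, where it no longer passed (adjusted exact permutation p 0.160), 0.26 for miR-486a-3p and 0.18 for miR-486b-3p with isoproterenol, and 0.0038 for miR-486b-3p over all libraries. Without the 2 hearts farthest from the median of miR-451a, r was 0.71 for miR-144-3p over all libraries (adjusted permutation p 0.0530). In controls it was then -0.094 for miR-144-3p, 0.99 for miR-144-5p, 0.99 for miR-486a-3p, 0.90 for miR-486b-3p and -0.14 for miR-486b-5p, over 4 hearts. With isoproterenol it was 0.61 for miR-144-5p and -0.057 for miR-486b-5p, and with both drugs 0.33 for miR-486a-3p. The values without the farthest hearts also rest on fewer hearts. The cause of these changes was not tested.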
